A study of Homo sapiens with 24 samples.

Results

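For this comparison U251 cells, an established human glioblastoma line, had 72 h of G-1 at 1 µM and were set against cells that received the vehicle dimethyl sulfoxide (DMSO) for the same time. The members of this comparison were the 4 arrays titled G-1 1 µM at 72 h and the 4 arrays titled DMSO at 72 h, which made 8 of the 24 arrays of the series. The other arrays held both treatments at 24 h and a lower G-1 dose, labelled IC50, at 24 h and 72 h. Cells of all groups were grown without phenol red and had been deprived of steroid hormones for 24 h in medium with charcoal-stripped serum before the exposure. The labels give the vehicle as DMSO 0.1% and describe the 4 replicates of a group as independent, whereas the study's text gives another DMSO concentration. One duration entry of the G-1 1 µM 72 h arrays reads 24 h. The titles and source names read 72 h and were used here. As each group comes from a single cell line, the replicates carry the spread between cultures of that line and not between tumours.

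G-1 is a synthetic agonist of GPER, a G protein-coupled receptor of the cell membrane that binds estrogens and signals through cyclic AMP, EGF receptor transactivation and the ERK kinases. At micromolar concentrations it is also known to disturb the assembly of microtubules, the tubulin polymers of which the mitotic spindle is made. Cells whose spindle is disturbed are held in mitosis by the spindle checkpoint, and the mRNAs of mitotic kinases and kinetochore proteins are at their highest in this phase.

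Cyanine-3 labelled cRNA of each culture was hybridized to a 1-colour Agilent array. Signals are given as log2 intensity after the 75th percentile of each array was set to 0, so a value of 0 is the signal of a fairly bright probe of that array, and a difference of 1 is a factor of 2. Replicates had correlations between 0.992 and 0.996 in DMSO and between 0.991 and 0.994 in G-1 over the 22970 probes tested. A single slide carried the G-1 1 µM arrays and was scanned in another session than the slides that carried DMSO. Treatment and slide therefore cannot be told apart within this comparison. On the DMSO arrays 41.1% to 43.3% of the spots exceeded background by the scanner's criterion (called seen from here on), and on the G-1 arrays 38.0% to 40.7%. The dimmest seen signal ranged from -3.54 to -3.11 in DMSO and from -3.06 to -2.48 in G-1. RNA was taken from whole cultures, so fewer cells of a type and less RNA per cell cannot be told apart. Of 27 astroglial and glioma identity genes, 21 were seen on all 8 arrays, among them GFAP, VIM, NES and SOX2, and OLIG2, SLC1A2, AQP4, ALDH1L1, BCAN and NCAN did not pass the filter on dim probes. Of 17 markers of other cell types, PTPRC, CD3E, AIF1, ITGAM, PECAM1, EPCAM, CDH1 and KRT5 were at or below background on all 8 arrays.

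The question was which genes U251 cells expressed at another level after 72 h of G-1. A gene was called when at least 1 of its probes had a limma adjusted p under 0.05 and a fold change over 2, and 2879 genes were, of which 1059 were higher and 1820 lower with G-1. Among the 14235 genes with a symbol, each represented by its brightest probe, 705 were called higher and 1050 lower, which is 4.95% and 7.38% of them. By the adjusted p alone, 35.2% were higher and 30.9% lower, and 58.7% had no overlap of signals between the treatments. Dim probes held many of the calls. The dimmest 20% of all probes in the test held 32.8% of the probes called higher and 43.3% of those called lower, and 593 of the latter were seen on no G-1 array. Among the 12902 genes seen on all 8 arrays, 574 were called higher and 641 lower (4.45% and 4.97%), so the lower share of the calls was 52.8% against 59.8% over all genes with a symbol. By the adjusted p alone 37.5% of these genes were higher and 29.0% lower, and 59.6% had no overlap between the groups. Of the calls on measured signals, 1210 did not overlap between the groups, 56 higher genes and 66 lower ones had moved by more than 4-fold, and the median fold change was 2.39 among the higher and 2.49 among the lower genes. With normexp background correction, 919 genes were called in all, against 2879. This correction adds 50 to every signal, which by its construction brings ratios of dim signals closer to 1. Of the 102 genes followed across settings, 34 had a fold change more than 1.5 times smaller with it and none had one more than 1.5 times larger, and 16 of the 95 called ones lost their call. Such values are given beside the genes they concern.

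**Figure D1:**
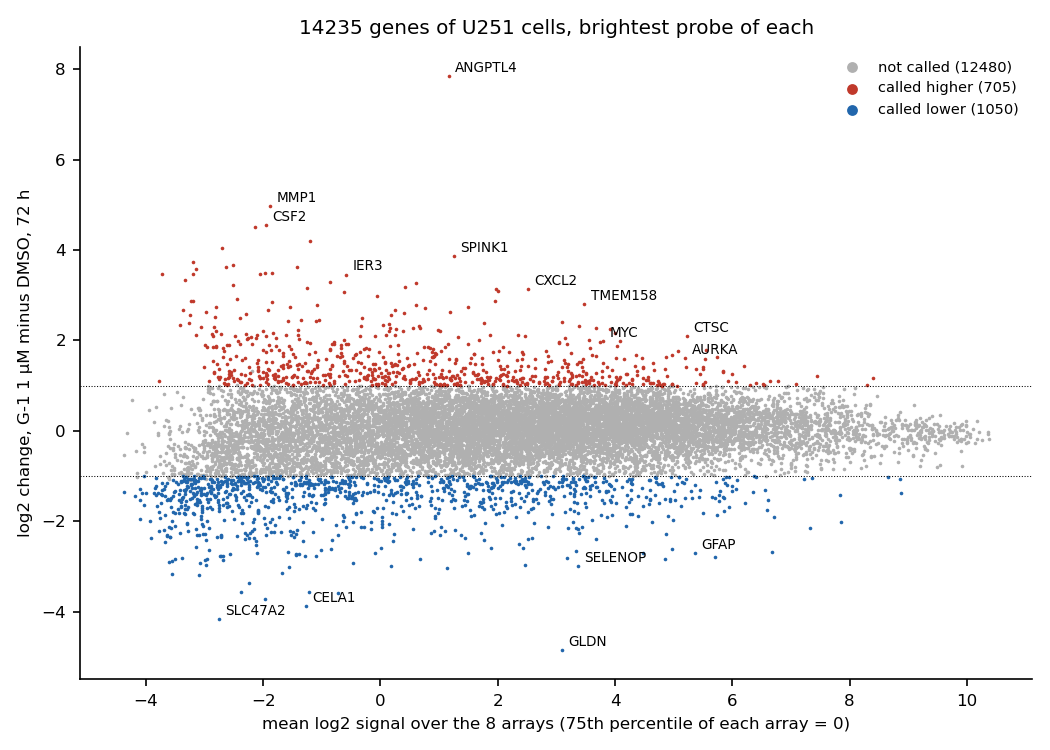
Mean log2 signal over the 8 arrays (x axis, 75th percentile of each array at 0) against the log2 change of G-1 1 µM relative to DMSO at 72 h (y axis), with 1 point for each of 14235 genes, the dotted lines at a fold change of 2, and 705 genes called higher in red and 1050 called lower in blue. ANGPTL4 stood alone at the top with 7.85, GLDN lay lowest with -4.86, and the lower calls crowded at the dim end.

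ANGPTL4, which encodes a secreted inhibitor of lipoprotein lipase and is a known target of PPAR receptors and of hypoxia, had the largest change of all. Its log2 signals were 5.43, 5.39, 4.69 and 4.87 on the 4 G-1 arrays and -1.87, -2.29, -3.64 and -3.24 on the DMSO arrays, where 2 of 4 were well above background. Every G-1 array lay far above every DMSO array, at a log2 change of 7.85 ± 0.51 (SE, n = 4 arrays per group, limma adjusted p = 8.4e-11), or 232-fold. The DMSO arrays differed from each other more than the G-1 arrays did, and the size of the fold rests on these dim signals. With normexp it was 50.9-fold.

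The 12 leading higher genes seen on all 8 arrays were SPINK1, IER3, XDH, CXCL3, MPP4, NT5E, CXCL2, FST, RDUR, SPANXB1, IL11 and TMEM158. SPINK1, a secreted trypsin inhibitor, had signals of 3.47, 3.38, 2.99 and 2.91 with G-1 and -0.46, -0.41, -1.11 and -0.76 with DMSO, and rose by 3.87 ± 0.24 (SE, n = 4 arrays per group, limma adjusted p = 4.4e-11). CXCL2 and CXCL3 encode chemokines that attract neutrophils. CXCL2 went from 0.95, 1.10, 0.86 and 0.84 to 4.10, 3.99, 4.20 and 4.03, a change of 3.14 ± 0.13 (adjusted p = 5.5e-13). CXCL3 went from -1.11, -1.03, -1.31 and -1.27 to 1.94, 1.99, 2.14 and 1.91, a change of 3.18 ± 0.18 (adjusted p = 1.5e-11). The arrays of a group lay within 0.4 of each other for both chemokines, and the groups were about 3 apart. IL11, a cytokine of the interleukin-6 family, had 3.22, 3.36, 3.60 and 3.35 with G-1 against 0.32, 0.40, 0.68 and 0.63 with DMSO and rose 7.35-fold. FST, which encodes the activin antagonist follistatin, had 3.37, 3.54, 3.85 and 3.44 against 0.40, 0.30, 0.91 and 0.24 and rose 8.49-fold. NT5E encodes CD73, the surface enzyme that makes adenosine from AMP. Its signals were 3.65, 3.49, 3.50 and 3.51 with G-1 and 0.36, 0.52, 0.45 and 0.23 with DMSO, a rise of 8.85-fold with little spread in either group. Under normexp SPINK1 rose 8.42-fold instead of 14.7-fold and CXCL3 4.68-fold instead of 9.04-fold.

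IER3, an immediate early gene of the ERK response, was the second of these genes by size, with signals of 1.21, 1.26, 1.07 and 1.04 against -2.66, -2.14, -2.27 and -2.17, a rise of 11-fold. XDH, the xanthine dehydrogenase of purine breakdown, rose 9.62-fold, the scaffold gene MPP4 8.93-fold, the long noncoding RNA RDUR 8.35-fold, the cancer-testis gene SPANXB1 7.87-fold, and TMEM158, a gene known to be induced by active RAS, 6.95-fold. After normexp correction the rises were 3.96-fold for IER3, 4.84-fold for XDH, 2.64-fold for MPP4, 3.42-fold for RDUR and 3.64-fold for SPANXB1. All 12 of the leading higher genes seen on the 8 arrays were higher on every G-1 array than on every DMSO array. They were picked by the size of their change, and 59.6% of all genes seen on the 8 arrays had no overlap. Probes of CXCL2 and CXCL3, and of SPANXB1 and its near copies, may share target sequence, which was not tested.

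Some genes were seen on all G-1 arrays and on none of the DMSO arrays, so only a lower bound of their change can be given. PNLIPRP3, a pancreatic lipase-related gene, was at least 17.8-fold higher, with signals of 1.19, 1.20, 0.80 and 0.35 under G-1. MMP1, the interstitial collagenase, was at least 14.8-fold higher, with 0.90, 1.25, 0.37 and -0.08. CSF2, the cytokine GM-CSF, was at least 12.1-fold higher, with 0.41, 0.29, 0.59 and 0.02. The metalloproteinase gene ADAMTS1 was at least 8.61-fold higher, the neurotrophin receptor gene NTRK2 at least 8.12-fold, and LINC02454 at least 6.03-fold. The bound sets the G-1 mean against the lowest signal seen on the DMSO arrays, or the gene's own signal where that was higher. It holds for this scaling only, since normexp gave 3.72-fold for PNLIPRP3, 3.69-fold for MMP1, 3.18-fold for CSF2, 2.37-fold for ADAMTS1, 2.28-fold for NTRK2 and 1.89-fold for LINC02454, which was then not called. Each of the 6 had an adjusted p under 0.05, the largest being 3.5e-07 for NTRK2.

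The AP-1 transcription factors act downstream of ERK and bind the letters TGANTCA. The 15 promoters available for the 18 leading higher genes were therefore searched for these letters, in the 250 bases before the start of each gene and on both strands, and 3 held a match. These were FST, IL11 and PNLIPRP3. Over the 422 promoters of genes called higher and seen on all 8 arrays, 9.0% held a match, against 2.67% of 486 promoters of genes called lower, 4.27% of 11264 genes tested and 6.6% of all 27305 promoters. A match describes the letters and not a bound site. The motif and the promoters shown were chosen after the values were seen. The last 120 bases before the start are shown for the 2 genes whose match lies in that stretch, from RefSeq on GRCh38.p14, with the match in capitals. The window of IL11 is chr19:55370464-55370583, - strand, and that of PNLIPRP3 is chr10:116427727-116427846, + strand.
IL11: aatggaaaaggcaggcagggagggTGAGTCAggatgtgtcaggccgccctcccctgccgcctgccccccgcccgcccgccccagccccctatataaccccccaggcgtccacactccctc
PNLIPRP3: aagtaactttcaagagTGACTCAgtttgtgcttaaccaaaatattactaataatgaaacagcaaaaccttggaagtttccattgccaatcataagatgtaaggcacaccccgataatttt

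GLDN, which encodes gliomedin, a matrix protein of the node of Ranvier, had the largest fall among genes measured on all arrays. Its signals were 0.73, -0.30, 0.94 and 1.27 with G-1 and 5.60, 5.47, 5.31 and 5.70 with DMSO, a log2 change of -4.86 ± 0.24 (SE, n = 4 arrays per group, limma adjusted p = 2.6e-12), or 29-fold. The G-1 arrays spread over more than 1.5 log2 and still lay over 4 below the lowest DMSO array. SELENOP, the selenium transport protein, went from 4.99, 5.01, 4.50 and 4.93 to 2.18, 1.41, 1.91 and 1.96, a change of -2.99 ± 0.16 (adjusted p = 8.7e-12). A2M encodes the protease inhibitor alpha-2-macroglobulin. It went from 6.36, 6.47, 5.83 and 6.45 to 3.25, 2.85, 3.74 and 3.88, a change of -2.85 ± 0.25 (adjusted p = 4.4e-09). FRZB, a secreted antagonist of WNT ligands, went from 6.87, 7.05, 7.01 and 7.51 to 3.87, 3.44, 4.93 and 4.99, a change of -2.80 ± 0.37 (adjusted p = 1.4e-06). GFAP, the intermediate filament protein by which astrocytes are recognised, went from 6.46, 6.70, 6.67 and 7.07 to 3.65, 3.56, 4.44 and 4.41, a change of -2.71 ± 0.31 (adjusted p = 2.5e-07). GFAP, A2M and FRZB were among the brighter genes of the DMSO cells and remained well above background with G-1. In all 3, replicates 1 and 2 of G-1 lay below replicates 3 and 4.

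The other leading lower genes were LDLRAD4, an inhibitor of TGF-beta signalling (8.19-fold), the glutamate receptor subunit gene GRIN2A (7.99-fold), the sialyltransferase gene ST6GALNAC2 (7.85-fold), the semaphorin gene SEMA5B (7.6-fold), ELMOD1 (7.15-fold), C20orf141 (7-fold) and the glutamine transporter gene SLC38A3 (6.82-fold). The groups did not overlap for any of the 12, which were picked by the size of their change. Of all genes seen on the 8 arrays, 59.6% had no overlap. Normexp made the falls of LDLRAD4 5.42-fold, of GRIN2A 3.57-fold, of SEMA5B 3.55-fold, of ELMOD1 4.65-fold and of SLC38A3 2.76-fold. A second SLC38A3 probe of like brightness had a log2 change of -1.10 against -2.77, and a GRIN2A probe slightly dimmer than the first had -1.60. Genes seen on all DMSO arrays and on no G-1 array were led by CELA1, an elastase gene, with DMSO signals of 0.73, 0.50, 0.53 and 0.88, which was at least 11.2-fold lower. The guanine deaminase gene GDA was at least 6.56-fold lower, FAM230I at least 4.79-fold, SPARCL1, a matrix protein gene of astrocytes, at least 4.65-fold, the organic cation exporter gene SLC47A2 at least 4.41-fold and SRGAP3 at least 4.18-fold. Normexp gave 3.53-fold for CELA1 and 2.46-fold for GDA, and the other 4 were between 1.85-fold and 1.95-fold and not called.

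**Figure D2:**
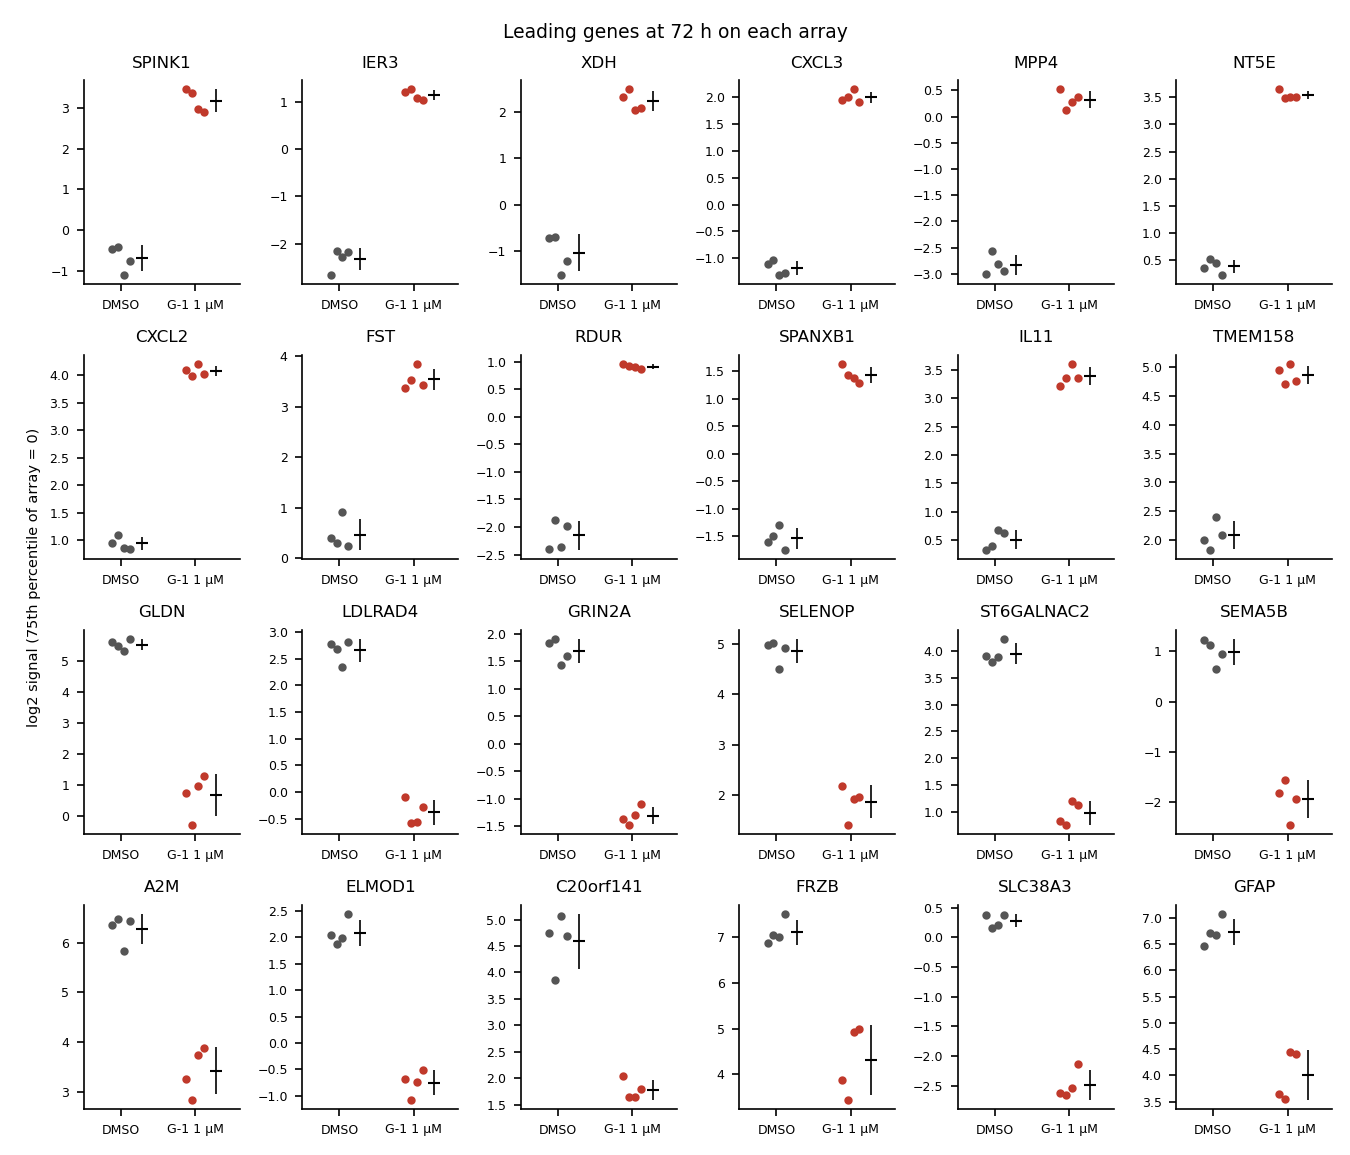
Log2 signal of the 12 leading higher and the 12 leading lower genes on each of the 4 DMSO (grey) and 4 G-1 1 µM (red) arrays at 72 h, with the 75th percentile of each array at 0. The bar beside the points is the mean with its SD, and each panel has its own scale. The genes were picked by the size of their change, and none shows an overlap of the groups. Of all genes seen on the 8 arrays, 59.6% had no overlap. The widest G-1 spread is in GLDN, FRZB, A2M and GFAP.

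Genes of mitosis were higher with G-1. AURKA, the kinase of spindle poles and centrosomes, had signals of 6.07, 5.81, 6.09 and 6.02 with G-1 and 4.31, 4.49, 4.44 and 4.35 with DMSO, a change of 1.60 ± 0.12 (SE, n = 4 arrays per group, limma adjusted p = 7.1e-10). BORA, which brings AURKA to the kinase PLK1, had 2.24, 2.04, 2.33 and 2.26 against 0.88, 0.96, 0.92 and 0.93, a change of 1.30 ± 0.13 (adjusted p = 3.5e-08). PLK1, the polo-like kinase of mitotic entry, had 3.62, 3.90, 4.18 and 3.90 against 2.78, 2.85, 2.97 and 2.75, a change of 1.06 ± 0.16 (adjusted p = 5.7e-06). CDC20, the activator of the anaphase-promoting complex that the spindle checkpoint holds back, had 5.55, 5.43, 5.62 and 5.55 against 4.11, 4.11, 4.34 and 4.11, a change of 1.37 ± 0.13 (adjusted p = 1.6e-08). Each of the 4 was higher on every G-1 array than on every DMSO array, by 2.09-fold to 3.03-fold. Of all genes with a symbol, 58.7% had no overlap between the groups. PLK1 lay near the fold threshold and was not called after quantile normalization (0.99), at the 50th percentile (0.99) or without G-1 replicate 3 (0.97).

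Over all genes with a symbol, 4.95% were called higher and 7.38% lower, and 35.2% rose and 30.9% fell by adjusted p alone. These shares stand beside the counts of every list below. Of 22 mitotic kinases and entry factors, 10 were called higher and none lower, with a median log2 change of 0.88 against 0.03 over all genes with a symbol. By adjusted p alone 19 rose and 3 did not pass. The called ones included CCNA2 (1.28), the cyclin of S phase and early mitosis, CCNB1 (1.10), PLK4 (1.17), the kinase of centriole duplication, and TPX2 (1.06), an activator of AURKA. CDK1 rose by 0.35 and CCNB2 by 0.52, both under the fold threshold, and CDC25B had -0.06, which did not pass the test. Of 28 spindle checkpoint and kinetochore genes, 9 were called higher and none lower, with a median of 0.79, and 23 rose by adjusted p alone. TTK (1.23), the checkpoint kinase MPS1, SKA1 (1.14), which ties kinetochores to microtubules, CENPA (1.12), the histone of centromeres, and MAD2L1 (1.02), the checkpoint inhibitor of CDC20, were among them. Of 17 measured genes of kinesins and cytokinesis, 14 rose by adjusted p alone with a median of 0.68, and only ANLN (1.21) and KIF18A (1.04) were called. That count ranged from 1 to 4 between settings and single arrays left out, with 1 at the 50th percentile, with normexp and without DMSO replicate 4, and 4 without DMSO replicate 3. With normexp, 5 spindle checkpoint genes were called instead of 9, and SKA1 (0.95) and KIF18A (0.91) were not. The mitotic lists held genes that the study had named on these samples and are no independent evidence of their direction.

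Genes that peak in G2 and mitosis are known to carry a CCAAT box, bound by NF-Y, and a CHR element, bound by the DREAM and MMB complexes, near their start. Letters of these motifs (CCAAT and TTTGAA, both strands, in the 250 bases before the start) were counted in the 54 promoters available for the measured members of the 3 lists. A CCAAT was in 68.5% and a TTTGAA in 44.4% of them, and 38.9% held both, against 33.0%, 13.6% and 4.85% of all 27305 promoters. Over the 11264 genes tested the shares were 35.3%, 8.74% and 3.5%. Among the 422 promoters of genes called higher and seen on the 8 arrays, 5.69% held both. The last 120 bases before the start of PLK1 (chr16:23678769-23678888, + strand), CDC20 (chr1:43358861-43358980, + strand) and BORA (chr13:72727803-72727922, + strand) are shown from RefSeq, GRCh38.p14, since these genes carry the mitotic change above. Capitals mark the matches, and a CCAAT on the other strand reads ATTGG.
PLK1: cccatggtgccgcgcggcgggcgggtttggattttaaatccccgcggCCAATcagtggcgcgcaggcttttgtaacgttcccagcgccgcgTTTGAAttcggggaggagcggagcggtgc
CDC20: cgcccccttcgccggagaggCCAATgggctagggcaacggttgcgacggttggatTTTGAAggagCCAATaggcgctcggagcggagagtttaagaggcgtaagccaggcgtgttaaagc
BORA: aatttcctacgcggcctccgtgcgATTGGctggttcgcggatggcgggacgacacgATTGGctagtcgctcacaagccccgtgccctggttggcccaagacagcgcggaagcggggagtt

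PLK1 had a CCAAT and a TTTGAA in this stretch and CDC20 had 2 of the first and 1 of the second. BORA had 2 CCAAT boxes here and its TTTGAA lay further upstream. AURKA and TTK were looked for and are named only.

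The tubulin genes, which encode the protein that microtubules are made of, did not share a direction. Of 17, 8 were higher and 7 lower by adjusted p, with a median of 0.00, where 35.2% of all genes were higher and 30.9% lower. The split was 2 higher and 7 lower when arrays were set to their 50th percentile. TUBB2B, a beta tubulin of neural cells, went from 3.46, 3.30, 3.59 and 3.58 to 2.21, 1.93, 2.25 and 2.11 and fell 2.57-fold. TUBB4A had -1.14 on dim signals, with 1 of 4 G-1 arrays well above background. Its adjusted p of 0.00979 became 0.21 with normexp and 0.055 when only the 8 arrays were fitted, and its change was -0.69 (adjusted p = 0.0538) without G-1 replicate 1. The changes of the widely expressed genes TUBA1B and TUBB were -0.10 and 0.25.

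MYC, the transcription factor that drives ribosome production, had signals of 5.00, 4.51, 4.81 and 4.86 with G-1 and 2.75, 2.62, 2.96 and 2.91 with DMSO, a change of 1.98 ± 0.15 (SE, n = 4 arrays per group, limma adjusted p = 7.3e-10). Of 32 genes of the MYC and ribosome biogenesis list, 31 rose by adjusted p and none fell, with a median of 1.00. The 17 that were called included LYAR (1.52), DKC1 (1.36), the pseudouridine synthase of ribosomal RNA, DDX21 (1.35) and NOP2 (1.18). Many of them lay just over the fold threshold, and 10 were called after quantile normalization, 9 at the 50th percentile and 11 without DMSO replicate 1. Of 17 nucleotide synthesis genes, 15 rose by adjusted p with a median of 0.71, and UCK2, a uridine-cytidine kinase, was the only one called (1.49), so that 15 of 17 stand beside 35.2% of all genes and 1 of 17 beside 4.95%. Among 25 genes of DNA replication, 22 rose by adjusted p with a median of 0.59, and ORC6 (1.49), a subunit of the origin recognition complex, E2F7 (1.47), a repressor of the E2F family, and RFC3 (1.07), a clamp loader subunit, were called. RFC3 was not called at the 50th percentile, with normexp or without G-1 replicate 1.

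ATF4 is the transcription factor that cells use when amino acids are short or the endoplasmic reticulum is loaded. Of 23 measured genes of its list, 12 were called higher and 1 lower, beside 4.95% and 7.38% of all genes with a symbol. The median of the list was 1.04. CHAC1, which breaks down glutathione, had 3.12, 3.60, 3.32 and 3.11 with G-1 against 1.45, 1.46, 1.66 and 1.78 with DMSO and rose 3.25-fold. SLC7A5, the large neutral amino acid transporter LAT1, had 3.73, 3.92, 3.80 and 3.28 against 2.27, 2.23, 2.06 and 1.59 and rose 3.13-fold. The transporter gene SLC38A1 (1.44), the mitochondrial folate enzyme gene MTHFD2 (1.41), TRIB3 (1.31) and DDIT3 (1.23), which encodes CHOP, were also called. ATF3 fell by 0.91, SLC7A11, the cystine transporter, had 0.13, which did not pass, and VLDLR was the member called lower (-1.31). Of 20 cytosolic tRNA synthetases, 15 rose and 2 fell by adjusted p, and GARS1 (1.18) and FARSB (1.09) were called, the latter not with normexp (0.90) nor in its other probe (0.49).

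Feedback inhibitors of the ERK pathway are known to be transcribed when ERK is active, and were listed together with AP-1 factors. Of 21 measured, 13 were called higher and 1 lower, with a median of 1.24. Besides IER3, the Sprouty gene SPRY4 went from -0.84, -0.99, -0.76 and -0.85 to 1.07, 1.49, 1.71 and 1.29, a change of 2.25 ± 0.21 (adjusted p = 9.8e-09), or 4.76-fold, and 2.76-fold with normexp. DUSP5, a nuclear ERK phosphatase, went from -0.99, -0.61, -0.42 and -0.86 to 1.39, 1.37, 1.87 and 1.35, a change of 2.22 ± 0.14 (adjusted p = 7.8e-11). DUSP4 (1.92), DUSP6 (1.75), the ETS factors ETV4 (1.91) and ETV5 (1.69) and the AP-1 subunit FOSL1 (2.01) were called as well. The AP-1 subunits did not move together, since FOSL2 was called lower (-1.07), JUN fell by 0.32 and FOS had 0.35, which did not pass.

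Of 30 secreted cytokines and growth factors, 23 were measured, and all 23 passed the adjusted p. Of these, 16 were called higher and 2 lower, with a median of 1.88, and the signals of the groups overlapped for none, where 58.7% of all genes had no overlap. Among the 21 seen on all 8 arrays, 14 were called higher and 2 lower, and with normexp the median over the 23 was 0.99. Next to those described, IL1B (2.43), LIF (2.40), the placental growth factor gene PGF (2.38), BDNF (2.26), the endothelin gene EDN1 (2.21) and HBEGF (2.12), a ligand of the EGF receptor, were higher, and CSF1 (-1.11) and CXCL14 (-1.21) were lower. IL1A, CXCL1, CXCL8, CXCL12, CSF3, EREG and AREG did not pass the filter on dim probes.

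TGF-beta and YAP targets were higher in part. Of 17, 8 were called higher and none lower, with a median of 0.99. TGM2, a transglutaminase, had 1.06, 1.14, 0.83 and 0.68 with G-1 against -1.76, -1.72, -1.19 and -1.60 with DMSO and rose 5.63-fold (2.92-fold with normexp). ANKRD1 rose 3.23-fold (2.08-fold with normexp), and CCN2 (1.61) and TNC (1.41), which encodes tenascin-C, were called too. ACTA2, the smooth muscle actin gene, and AMOTL2 of the same list each fell by 0.64.

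The extracellular matrix list was split. MMP3 went from -2.27, -2.57, -1.99 and -3.17, with 3 of 4 DMSO arrays well above background, to 0.73, 0.92, 0.94 and 0.58, a rise of 9.8-fold (3.34-fold with normexp). PLAUR, the urokinase receptor, went from 2.18, 2.33, 2.12 and 2.26 to 4.40, 4.59, 4.69 and 4.46 and rose 4.98-fold. COL13A1 (1.93) was called higher, and COL4A1 (1.00) was on the fold threshold. Among those called lower were HSPG2 (-2.03), which encodes the basement membrane protein perlecan, SULF1 (-1.53), THBS2 (-1.51), COL14A1 (-1.51) and SPARC (-1.42). Over the 32 measured members, 6 were called higher and 8 lower, and 20 fell by adjusted p, with a median of -0.45.

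**Figure D3:**
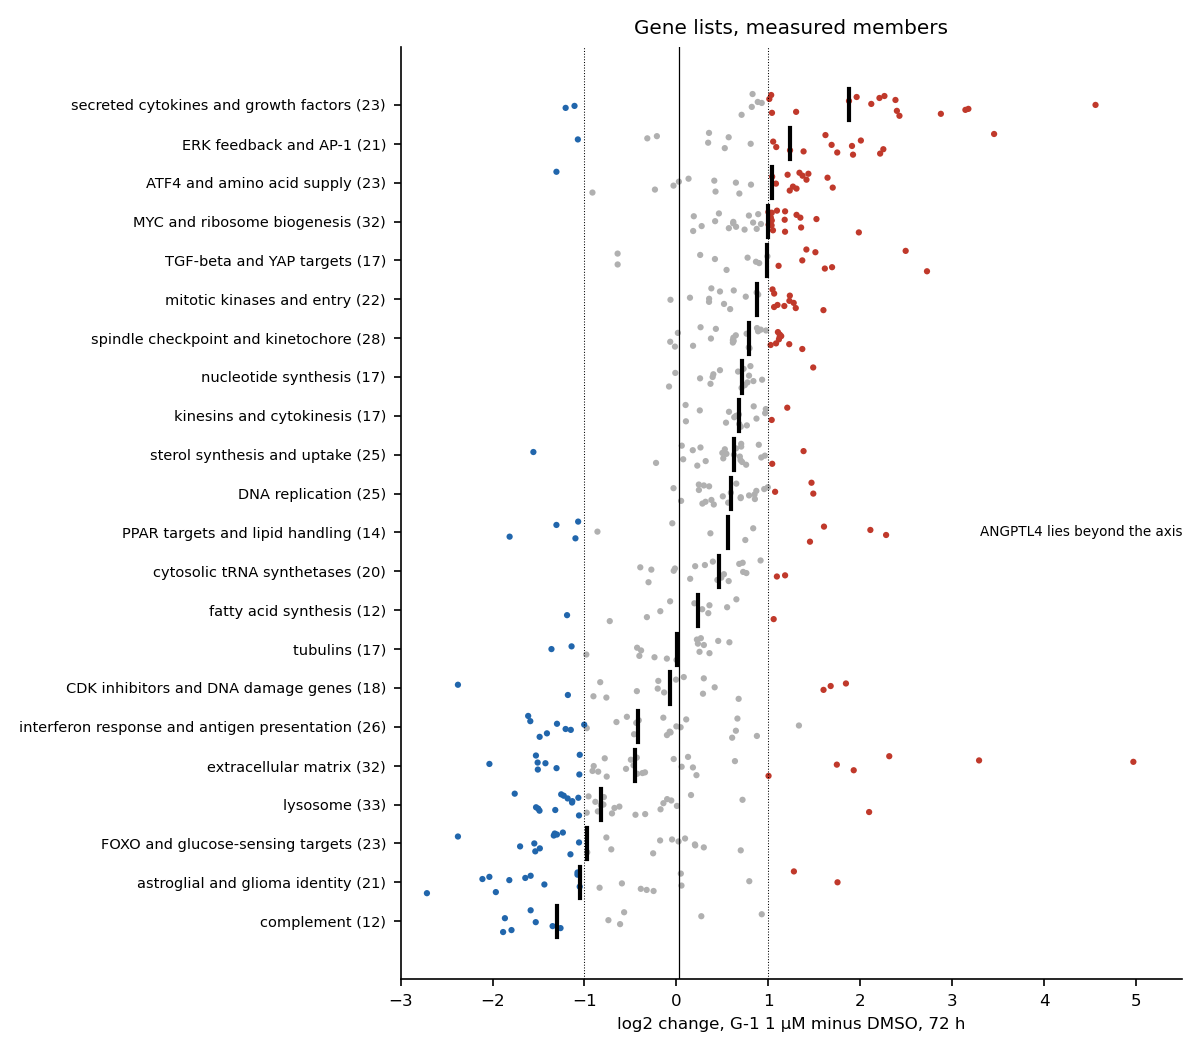
Log2 change of G-1 1 µM relative to DMSO at 72 h for each measured member of 22 gene lists, with the number of members in brackets. Red points were called higher, blue points lower and grey points were not called, the thick bar is the median of the list, the thin line is the median of all genes and the dotted lines mark a fold change of 2. Secreted factors had the highest median (1.88) and complement genes the lowest (-1.30), and ANGPTL4 (7.85) lies outside the axis. Of all genes with a symbol, 4.95% were called higher and 7.38% lower.

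Genes of innate immunity followed. Of 12 measured complement genes, 7 were called lower and none higher, with a median of -1.30, where 7.38% of all genes with a symbol were called lower. C1R and C1S encode the proteases that start the classical pathway. C1R went from 5.40, 5.53, 4.93 and 5.45 to 3.50, 3.35, 3.35 and 3.57, a change of -1.89 ± 0.12 (adjusted p = 5.6e-11). C1S went from 4.19, 4.17, 3.73 and 4.07 to 2.18, 2.19, 2.26 and 2.35, a change of -1.79 ± 0.10 (adjusted p = 1.4e-11). CFI (-1.87), CLU (-1.59), CFB (-1.53) and C4B (-1.35) were called with them, whereas CD55, which protects cells from complement, rose by 0.93. Probes of C4B may also bind the near-identical C4A. Of 26 measured genes of the interferon response and antigen presentation, 8 were called lower and none higher, with a median of -0.42. STING1, the sensor of cyclic dinucleotides, had 3.87, 3.62, 3.78 and 3.84 with G-1 against 5.48, 5.52, 5.10 and 5.46 with DMSO and fell 3.06-fold. STAT2 fell 2.81-fold and HLA-C, a gene whose probe may bind other HLA class I genes, 3.01-fold. The list was split, as IRF1 (0.88) and TAP2 (0.66) rose, and MX1 (-0.00) and ISG15 (0.05) did not pass.

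Lysosomal genes were lower. Of 33 measured, 12 were called lower and 1 higher, and 25 fell by adjusted p, with a median of -0.82. GAA, the acid alpha-glucosidase, had 5.80, 5.79, 5.90 and 5.90 with G-1 against 7.40, 7.32, 7.27 and 7.51 with DMSO, a change of -1.53 ± 0.08 (adjusted p = 4.3e-12). GPNMB (-1.76), the cathepsin genes CTSO (-1.50), CTSF (-1.49) and CTSH (-1.32), the tripeptidyl peptidase gene TPP1 (-1.23) and TFEB (-1.06), the transcription factor of lysosome genes, were also called lower. CTSC, a cathepsin that activates serine proteases, was the member called higher and went from 4.06, 4.12, 4.32 and 4.19 to 6.25, 6.18, 6.28 and 6.38, a rise of 4.28-fold, with 0.98 and 1.39 on the log2 scale for its dimmer probes, and the cholesterol exporter gene NPC1 rose by 0.72. The E-box CACGTG, which TFEB and MYC can bind, was in 30.4% of the 23 promoters available for this list, in 6.49% of all promoters, in 8.76% of those of genes tested and in 9.67% of those of genes called lower and seen on all 8 arrays.

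Of 23 measured FOXO and glucose-sensing targets, genes that are known to be transcribed when growth factor signalling is low, 11 were called lower and none higher, with a median of -0.97. BTG2, an antiproliferative gene, went from 3.80, 3.82, 3.55 and 3.92 to 1.52, 1.29, 1.31 and 1.46, a change of -2.38 ± 0.11 (adjusted p = 1.1e-12). SESN3 fell 3.25-fold, KLHL24 2.92-fold and TXNIP, the thioredoxin inhibitor that reports glucose, by 1.54 on the log2 scale. CCNG2 (0.20), IRS2 (0.02) and BCL6 (0.20) did not pass.

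Astroglial identity genes were lower beyond GFAP. Of 21 measured, 11 were called lower and 2 higher, with a median of -1.05. MLC1, a membrane protein of astrocyte endfeet, went from 5.22, 5.29, 5.09 and 5.37 to 3.12, 2.90, 3.29 and 3.22, a change of -2.11 ± 0.09 (adjusted p = 3.8e-13). CHI3L1, a secreted marker of reactive astrocytes, fell 4.1-fold, S100B by 1.96 and PTPRZ1 by 1.44 on the log2 scale. GJA1, which encodes connexin 43, rose by 1.75 and HOPX by 1.28, SOX9 had 0.06, which did not pass, and VIM (-0.25) and NES (-0.32) fell by less than 0.35. Of the 9 markers of other cell types that were measured, 4 were called lower (VWF, RBFOX3 and MOG among them) and 1 higher (CD14). On the 5 of them seen on all 8 arrays 1 was called lower and 1 higher, and with normexp 1 of the 9 was called lower and none higher. The summed linear signal of the 17 other-cell markers, in units of the 75th percentile of the array, was between 15.2 and 19.1 in DMSO and between 9.49 and 11.5 in G-1. The part of other cells in the changes above was not tested.

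Lipid genes gave a mixed picture at 72 h. Besides ANGPTL4, the PPAR and lipid handling list held MGLL, the monoacylglycerol lipase, which went from 2.49, 2.65, 2.67 and 2.34 to 4.74, 5.04, 4.84 and 4.66, a rise of 4.86-fold. ACOX2, a peroxisomal oxidase of bile acid precursors, rose 4.32-fold (2.79-fold with normexp), and LPL (1.61) and PDK4 (1.45) were called higher, whereas ACSBG1 (-1.81), VLDLR, CPT1C (-1.10) and UCP3 (-1.07) were called lower. Of 25 measured genes of sterol synthesis and uptake, 17 rose and 1 fell by adjusted p, with a median of 0.63, but only MSMO1 (1.38) and INSIG2 (1.04) were called higher and TM7SF2, a sterol reductase, lower (-1.56). INSIG2 was not called at the 50th percentile, with normexp or without DMSO replicate 3, DMSO replicate 4 or G-1 replicate 1, and MSMO1 not with normexp (0.95). INSIG1, which retains SREBP in the endoplasmic reticulum, rose by 0.76 ± 0.17 (adjusted p = 0.00049), the sterol carrier gene STARD4 by 0.70 ± 0.16 (adjusted p = 0.0007) and LSS, the lanosterol synthase, by 0.54 ± 0.18 (adjusted p = 0.013). Of LSS, the adjusted p was 0.0536 at the 50th percentile.

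Fatty acid synthesis genes did not share a direction. Of 12 measured, 4 rose and 3 fell by adjusted p, which is near the 35.2% and 30.9% over all genes with a symbol. ACLY was called higher (1.06) and ACACB lower (-1.19). ACLY was not called after quantile normalization, at the 50th percentile or with normexp, and ACACB not with normexp (-0.99). FASN, the fatty acid synthase, had 6.39, 6.41, 6.35 and 6.15 with G-1 and 5.91, 5.92, 6.19 and 5.90 with DMSO, which overlapped, and its change of 0.35 ± 0.18 (adjusted p = 0.102) did not pass. The desaturase gene FADS1 had a change of 0.28 ± 0.13 (adjusted p = 0.0666). Fitted on the 8 arrays alone, the adjusted p was 0.0125 for FASN and 0.00858 for FADS1. SREBF1, the transcription factor of lipid synthesis genes, went from 7.26, 7.42, 7.27 and 7.50 to 6.72, 6.65, 6.55 and 6.64, a fall of 1.65-fold (adjusted p = 6.4e-07). A second and dimmer SREBF1 probe had -0.16 (adjusted p = 0.262).

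GPER1, the gene of the receptor that G-1 was made for, had 1.36, 1.19, 1.39 and 1.29 with G-1 and 2.08, 2.20, 2.03 and 2.12 with DMSO, a change of -0.80 ± 0.10 (adjusted p = 4.4e-07). The signals were lower on every G-1 array. ESR1 and ESR2, the nuclear estrogen receptors, did not pass the filter on dim probes, and ESRRA, an orphan receptor related to them, had 0.34 (adjusted p = 0.0259), which did not pass at the 50th percentile or after quantile normalization.

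Of 18 measured CDK inhibitors and DNA damage genes, 3 were called higher and 2 lower. By adjusted p 6 rose, 6 fell and 6 did not pass, where 35.2% of all genes rose and 30.9% fell. AEN, an apoptosis nuclease gene, rose 3.59-fold and GADD45A, a stress sensor gene, went from 3.32, 3.55, 3.55 and 3.65 to 5.27, 5.14, 5.22 and 5.15, a rise of 3.2-fold. PMAIP1 (1.60), which encodes NOXA, was the other one called higher, and CDKN2A (-1.18) and BTG2 were lower. CDKN1A, the inhibitor p21, rose by 0.68, CDKN1C fell by 0.90, and MDM2 had -0.13, which did not pass.

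Changes at 72 h were set beside those at 24 h of the same dose, which had their own DMSO arrays but shared the slide of the G-1 1 µM arrays. At 24 h, 73 genes were called higher and 169 lower (0.513% and 1.19% of the genes with a symbol). Of these 242, 173 were also called at 72 h, which is 71.5% of the genes at 24 h and 9.86% of those at 72 h, and 172 of them had the same direction.

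The difference between the durations was tested as an interaction, in which a constant offset of the slide with all G-1 1 µM arrays cancels. An offset between the slides of the DMSO arrays does not fully cancel, as they held the durations in unequal numbers. The interaction was called for 1312 genes, 521 with a higher and 791 with a lower change at 72 h. With the slide as a fixed block, 1373 genes were called. By brightest probe, 343 genes (2.41%) and 550 (3.86%) were. By the adjusted p alone, 16.5% of the genes with a symbol had a positive and 17.6% a negative interaction. GLDN had the largest such difference among genes measured on all 16 arrays. With DMSO at 5.44, 5.31, 5.59 and 5.80 and G-1 at 4.64, 4.61, 4.88 and 5.33 after 24 h, its change was -0.67 ± 0.24 (adjusted p = 0.0416), and the interaction was -4.19 ± 0.34 (adjusted p = 5.2e-08). GFAP had 6.95, 6.80, 7.52 and 8.06 with G-1 against 6.34, 5.98, 7.14 and 7.35 with DMSO at 24 h, which overlapped, and its change of 0.63 there turned to -2.71 at 72 h. The interaction of GFAP was -3.35 ± 0.44 (adjusted p = 1.2e-05). SPINK1 had a change of 0.43 ± 0.24 (adjusted p = 0.185) at 24 h, and an interaction of 3.45 ± 0.34 (adjusted p = 3.6e-07). NT5E, XDH, SPANXB1, TMEM158, CXCL3, UCN2, a peptide of the corticotropin-releasing family, and LINC02154 also had positive interactions, of 2.21 to 2.59 (log2). C20orf141, ST6GALNAC2, SLC38A3, A2M, SEMA5B and LDLRAD4 had negative interactions, of 2.57 to 2.77 in size.

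For the mitotic genes described above, the interaction of AURKA was 0.42 ± 0.17 (adjusted p = 0.0658), of BORA 0.29 ± 0.18 (adjusted p = 0.248), of CDC20 0.27 ± 0.18 (adjusted p = 0.275) and of PLK1 -0.03 ± 0.22 (adjusted p = 0.938), none of which passed. Changes of these 4 genes at 24 h were 1.18, 1.01, 1.10 and 1.09. Of the 22 mitotic kinases and entry factors, 4 had a positive and 1 a negative interaction by adjusted p, and the median change of the list was 0.55 at 24 h and 0.88 at 72 h. Of the 28 spindle checkpoint and kinetochore genes, 8 had a positive interaction and none a negative one, with medians of 0.43 and 0.79. These positive shares lie beside 16.5% over all genes. In the MYC and ribosome biogenesis list 25 of 32 were positive and none negative, and in the lysosome list 23 of 33 were negative and 2 positive. For some lipid genes the change was smaller or turned at 72 h. SREBF1 rose by 0.85 at 24 h and fell at 72 h, with an interaction of -1.58 ± 0.13 (adjusted p = 5.2e-08). FASN had a change of 1.39 at 24 h and an interaction of -1.04 ± 0.26 (adjusted p = 0.00442), and FADS1 had 1.06 and -0.78 ± 0.19 (adjusted p = 0.0033). For INSIG1 (-0.33 ± 0.24 (adjusted p = 0.308)), STARD4 (-0.39 ± 0.23 (adjusted p = 0.201)) and LSS (-0.58 ± 0.26 (adjusted p = 0.0963)) the interaction did not pass. Over all genes, 109 were significant in opposite directions at the 2 durations.

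**Figure D4:**
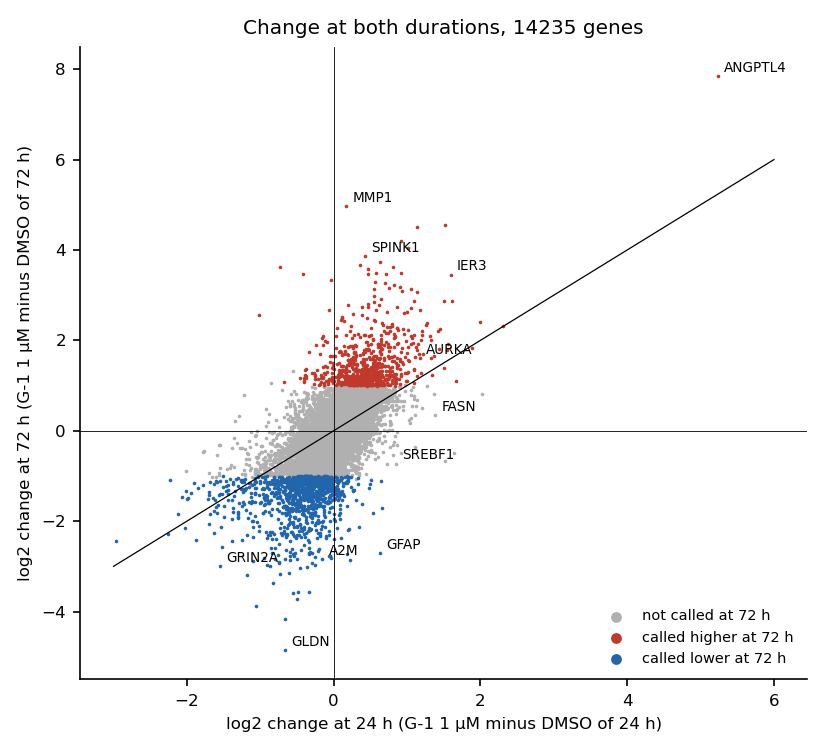
Log2 change of G-1 1 µM relative to DMSO at 24 h (x axis) and at 72 h (y axis) for 14235 genes, with the diagonal of equal change and the genes called at 72 h in red (higher) and blue (lower). The colours follow the call at 72 h, so the distance of coloured points from 0 on the y axis is set by the call. MMP1, SPINK1 and GLDN lie near 0 on the x axis, and SREBF1 lies on opposite sides of 0 at the 2 durations.

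The lower dose, G-1 IC50 at 72 h, was compared with the same DMSO arrays, so the values of both doses are given side by side and are not independent. The IC50 arrays were on the same slides and in the same scan session as the DMSO arrays, and the 1 µM arrays were not. Dose and slide therefore cannot be told apart when the 2 doses are compared. At IC50, 7 genes were called higher and 9 lower (0.0492% and 0.0632%). Among the 705 genes higher at 1 µM, 2 were called higher at IC50 and the median change there was 0.09. Among the 1050 lower ones, 6 were called lower at IC50 and 1 higher, and the median was -0.10. ANGPTL4 had 4.02, 3.91, 2.56 and 2.74 on the IC50 arrays, a change of 6.07 ± 0.51 (adjusted p = 7.2e-07) against 7.85 at 1 µM. MGLL had 3.29, 3.52, 3.35 and 2.98 and a change of 0.75 against 2.28. FST had a change of 0.75 against 3.09, and NT5E of 0.61 against 3.15. Among the leading lower genes, CELA1 had -1.24 against -3.87 and ST6GALNAC2 -0.87 against -2.97, all of these with an adjusted p under 0.05 at IC50. GLDN (-0.08), GFAP (0.18), IER3 (0.08), AURKA (0.08) and MYC (-0.08) did not pass at IC50. The medians of the mitotic kinases (0.07), the MYC and ribosome biogenesis genes (-0.06), the secreted factors (0.01) and the astroglial genes (-0.03) were near 0 there.

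**Figure D5:**
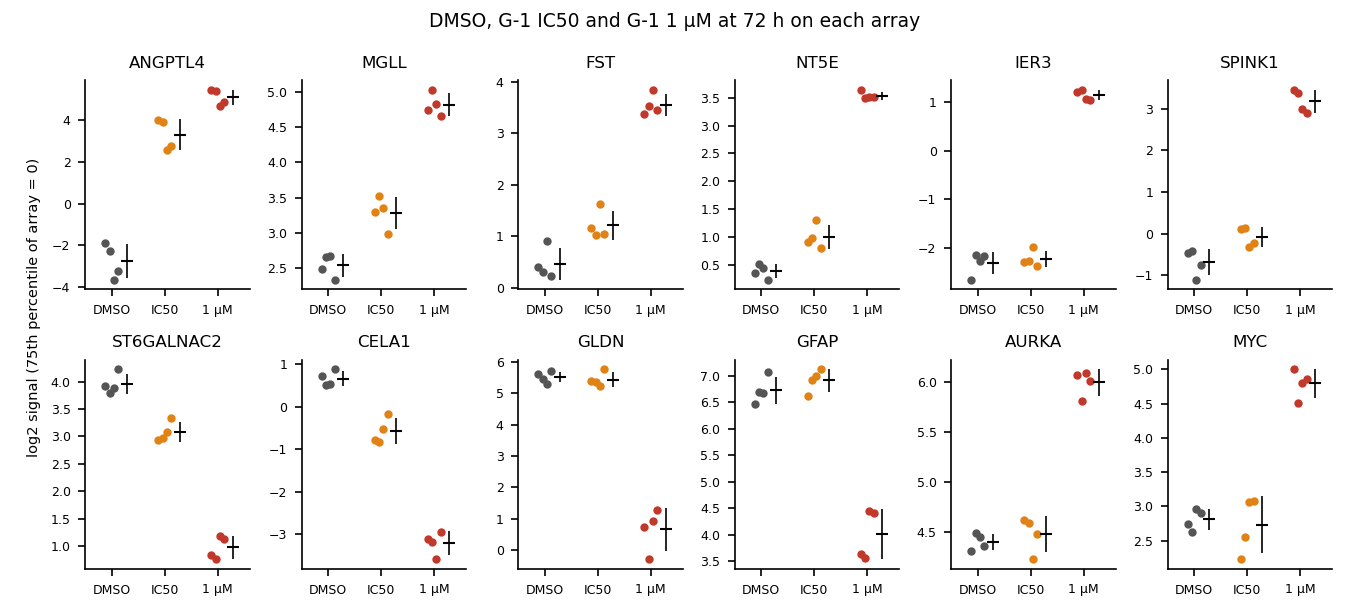
Log2 signal (75th percentile of each array at 0) of 12 genes on each array at 72 h, for DMSO (grey), G-1 IC50 (orange) and G-1 1 µM (red), with the mean and SD of the 4 arrays beside the points. ANGPTL4 lay between DMSO and 1 µM at the lower dose, whereas GLDN, GFAP, IER3, AURKA and MYC lay among the DMSO arrays, and each panel has its own scale. The DMSO and IC50 arrays shared slides and a scan session, and the 1 µM arrays were on another slide.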

How the data were processed

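RNA of 24 U251 cultures (6 groups of 4) was measured on 1-colour Agilent 8x60K arrays. For every spot the authors deposited the intensity that Feature Extraction wrote, background-subtracted and detrended within each array, without normalization between arrays. Version 12.1.1.1 stands in the file headers and 10.7.3.1 in the submitters' processing notes. A value table on the log2 scale was deposited by the authors too. Set against the scanner values, its entries were log2 intensities with the array's 75th percentile taken off and centred per probe on the median, with a largest difference of 0.0106 log2. The steps behind it are not given in the sources used here. The columns of this table had medians between -0.35 and 0.56.

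Control and outlier spots were removed, the 60901 RNA spots were averaged to 58201 probes, and 83 probes without a value on all arrays were dropped. From the log2 intensities, the array's 75th percentile was subtracted. Of the probes, 34981 were matched to 24817 symbols by RefSeq accession, and the others were counted under their own identifiers. Tests covered the 22970 probes that passed the scanner's criterion of signal over background (seen) on the 4 arrays of some group. In R 4.3.3, limma 3.58.1 fitted the means of 6 groups over the 24 arrays (moderated variances, Benjamini-Hochberg adjustment over all probes tested), after the code had been tested on simulated data. Fold changes compare normalized intensities and not molecules, and the number of arrays limits their precision.

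Genes were named when they led by change among those seen on all 8 arrays (12 each way), by lower bound (6 each way) or by interaction with duration (8 each way), when they were among the 3 called members of a list with the largest change, or when the study's text names them for this dose. List members outside these rules, and the genes of the plot of doses, were chosen after their values were seen. Some genes that these rules name are not reported here. The members of the comparison and the 24 gene lists were chosen with earlier results of these data known, so they are no independent support. Alternatives were the 50th percentile, quantile normalization, normexp background correction (offset 50, on the median signal of each spot, as the mean is not in the spot tables), other filters on dim probes, the deposited table, fits on fewer arrays, an intensity trend, blocks by slide or by replicate number, the methods' t-test, other fold thresholds and each array left out in turn. Promoter sequences came from a RefSeq table of GRCh38.p14.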

Additional observations from a re-analysis of the deposited data

Results flagged for a closer look

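Of 204 groups of 4 arrays looked at for the 102 named genes, 11 held an array that stood apart from the other 3 by Dixon's criterion at the 95% level, which chance alone gives in about 1 of 20 groups. DMSO replicate 3 was the array in 6 of them. It was lowest in SELENOP (log2 signal 4.50 against 4.93 on the nearest array), STING1 (5.10 against 5.46), KLHL24 (3.46 against 3.70) and CHI3L1 (2.36 against 2.93), and highest in CDC20 (4.34 against 4.11) and FASN (6.19 against 5.92). DMSO replicate 4 was highest in FAM230I (-0.27 against -0.62). Among the G-1 arrays, replicate 1 was highest in NT5E (3.65 against 3.51) and lowest in SRGAP3 (-4.35 against -3.26), replicate 3 highest in DUSP5 (1.87 against 1.39) and replicate 4 highest in CHI3L1 (0.89 against 0.73). Without DMSO replicate 3, 2935 genes were called, against 2879 with it.

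The change under G-1 1 µM differed between 72 h and 24 h for 1312 genes by the interaction term of limma (adjusted p under 0.05 and a difference over 2-fold). Only genes named for their interaction or by the study's text were looked at singly here, at an adjusted p under 0.05. Among these, the change at 72 h minus that at 24 h was positive on the log2 scale for SPINK1 3.45, XDH 2.56, CXCL3 2.27, NT5E 2.59, SPANXB1 2.43, TMEM158 2.32, ANGPTL4 2.62, UCN2 2.27 and LINC02154 2.21. It was negative for GLDN -4.19, LDLRAD4 -2.57, ST6GALNAC2 -2.71, SEMA5B -2.63, A2M -2.69, C20orf141 -2.77, SLC38A3 -2.71, GFAP -3.35, FASN -1.04, FADS1 -0.78 and SREBF1 -1.58. ANGPTL4 was well above background on 2 of the 4 DMSO arrays at 72 h.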

How the results depend on the processing

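The 2879 genes called at 72 h ranged from 2831 to 2962 when each of the 8 arrays was left out in turn, and the 1312 genes with a called interaction from 1150 to 1417 when each of 16 was. Counts at 72 h were 919 with normexp background correction, 1751 on probes seen above background on all 8 arrays, 4319 without a filter on dim probes, 6954 at a fold change over 1.5 and 12432 without a fold threshold. Restricted further to genes with a symbol that did not overlap between the groups, an alternative chosen after seeing the data, the count was 1210. The interaction counts were 362 with normexp, 819 on the probes above background on all 8 arrays, 3396 at a fold change over 1.5 and 6195 without a fold threshold. All other alternatives kept both counts within 1.5 times. They gave between 2542 and 3033 genes at 72 h, with 2868 after quantile normalization, 2879 from the deposited table and 2737 with the methods' t-test after Benjamini-Hochberg adjustment (2822 without it). The lower share of the calls was 63.2%, and 70.6% at the 50th percentile, 55.5% with normexp, 53.4% on the probes above background on all 8 arrays and 52.5% without a filter, which also moved the median of all probes from 0.00 to 0.31 log2. The cause was not tested. No sign of a named gene turned under any alternative or in another of its probes, and 2041 of 2056 values kept their side of the adjusted p of 0.05. The 15 that did not belonged to TUBB4A, FASN, FADS1, LSS and SREBF1. The fits on fewer arrays, the intensity trend, the blocks and the t-test left the log2 change unchanged, so no sign could turn there. Of the 102 genes followed, 95 were called at 72 h, most of them because the naming rules required a call. Their stability is therefore no independent support. With the fold threshold included, 36 of the 2056 values of 18 genes had another call, 16 of them with normexp, 5 at the 50th percentile, 2 after quantile normalization and 3 in other probes. Of 960 counts of called list members, 920 stayed within 1.5 times. These 920 include lists with no called member in a direction in either setting, and settings that left the log2 changes as they were.

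Between DMSO and the 1 µM dose at 72 h, arrays with the same replicate number were correlated in their deviations between 0.024 and 0.101. Here 2 of 4 correlated best with their own number, so the numbers were not taken as pairs. Between DMSO and the IC50 dose at 72 h, these correlations were 0.309, 0.485, 0.373 and 0.053. Between DMSO and the 1 µM dose after 24 h, they were higher than at 72 h, with 0.166, 0.268, 0.205 and 0.281. The main fit took no pairs for these comparisons either. With the replicate block within each duration, 2884 genes were called at 72 h and 1343 for the interaction. FASN and FADS1 passed under this block, and no other named gene changed its call. The slide could not be separated from the treatment at 72 h, and with the slide as a random block 2858 genes were called. The size of fold changes near background depended on the background correction, and genes not seen in a group have only a bound.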
